A study of Arabidopsis with 6 samples.

Results

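The acidic stalk of the cytosolic ribosome is encoded in Arabidopsis thaliana by small gene families, and 10 of their genes are described here on 6 arrays: 3 for P0 (AT2G40010, AT3G09200 and AT3G11250), 3 for P1 (AT1G01100, AT4G00810 and AT5G47700) and 4 for P2 (AT2G27710, AT2G27720, AT3G28500 and AT3G44590). They were taken as a list of loci by protein family, drawn up with earlier results of these data known. Their counts set beside the shares of all probe sets are therefore descriptions. Each of the 10 had 1 probe set that the probe table assigns to that gene alone, so all 10 listed genes were measured, out of 13355 genes measured in this way. Probe sets were to be chosen by their mean intensity over the 6 arrays, the brightest standing for a locus with several, but each of these loci had 1. The family was taken up with the difference of AT2G40010 between the genotypes already known, so the values of AT2G40010 are given as a description and without a p-value.

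The stalk is a flexible arm on the large ribosomal subunit, next to the site where translation factors bind. P0 anchors it to the ribosomal RNA, and dimers of P1 and P2 attach to P0. The shared acidic tails of these proteins recruit the GTP-hydrolysing elongation factors and stimulate their activity. Plants have in addition a related protein called P3.

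The study compared wild-type plants (Col-3) with the apum23 mutant in the same Col-3 background, both without treatment. APUM23 is a nucleolar RNA-binding protein of the Pumilio family with a role in processing precursors of ribosomal RNA. Soil-grown plants were 21 days old and had been kept at 22 °C with 8 h of light and 16 h of dark, and RNA of their aerial parts was measured on Affymetrix ATH1 arrays, 3 for each genotype. The design text calls the mutant apum23-1, whereas the descriptions of apum23 replicates 2 and 3 read apum23-2 and apum23-3, and the labels do not say whether these name other alleles or replicates. How many plants went into a sample is not given either, so p-values refer to the spread between these samples. For the limma p-values and intervals on deposited values, that spread was pooled over all probe sets. Each gene then had the same standard error of 0.22, whatever its own spread. In RNA from whole aerial parts, a change in the mix of cells and a change in RNA per cell cannot be told apart.

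Values are deposited log2 probe set intensities. Array medians lay between 5.34 and 6.10, and wild-type replicate 1 had both the lowest median and a low mean of its hybridization control spots (5.36 against 9.42 to 9.74 on the other 5 arrays). Of the leaf markers the table names, RCA read 13.75 in both genotypes, and PRK 12.71 in wild type and 12.30 in apum23. PRK did not pass as deposited (limma adjusted p = 0.403) and was lower after quantile normalization, by -0.44 on the log2 scale (limma adjusted p = 0.0172), and its part in the results below was not tested. The root hair markers EXPA7 (3.67 in wild type) and EXPA18 (3.97) were near the arrays' lower quartiles of 3.41 to 3.84, and PYK10, which is strong in roots, read 7.98. The table names no probe set for APUM23, so its level is not analysed here.

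Of the 10 stalk genes, 4 passed the test as higher in apum23 (limma, adjusted p under 0.05 over all 22746 probe sets), 0 as lower, and 6 did not pass. Among all probe sets 5.31% passed as higher and 1.38% as lower. AT2G40010, whose difference was known beforehand, is 1 of the 4, and of the other 9 genes 3 passed. AT2G40010 of P0 and AT3G28500 of P2 stood out, at 5.26-fold and 3.09-fold, and AT3G09200 of P0 and AT3G44590 of P2 each rose 1.62-fold. No P1 gene passed in this fit. All 10 differences were above 0, as were 65.3% of all probe sets, and the median difference of the 10 was 0.59 on the log2 scale against 0.08 for all probe sets. Without AT2G40010 the median was 0.53. In 7 of the 10 the lowest apum23 array was still above the highest wild-type array, which held for 11% of all probe sets, and without AT2G40010 this was so in 6 of 9. After quantile normalization this was so in 9 of the 10, and in 8 of 9 without AT2G40010, against 15.9% of all probe sets. When the arrays were brought to 1 distribution by quantile normalization, 8 of the 10 passed as higher, against 9.69% of all probe sets. AT4G00810 and AT2G27720 did not, and without AT2G40010 the count was 7 of 9.

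**Figure D1:**
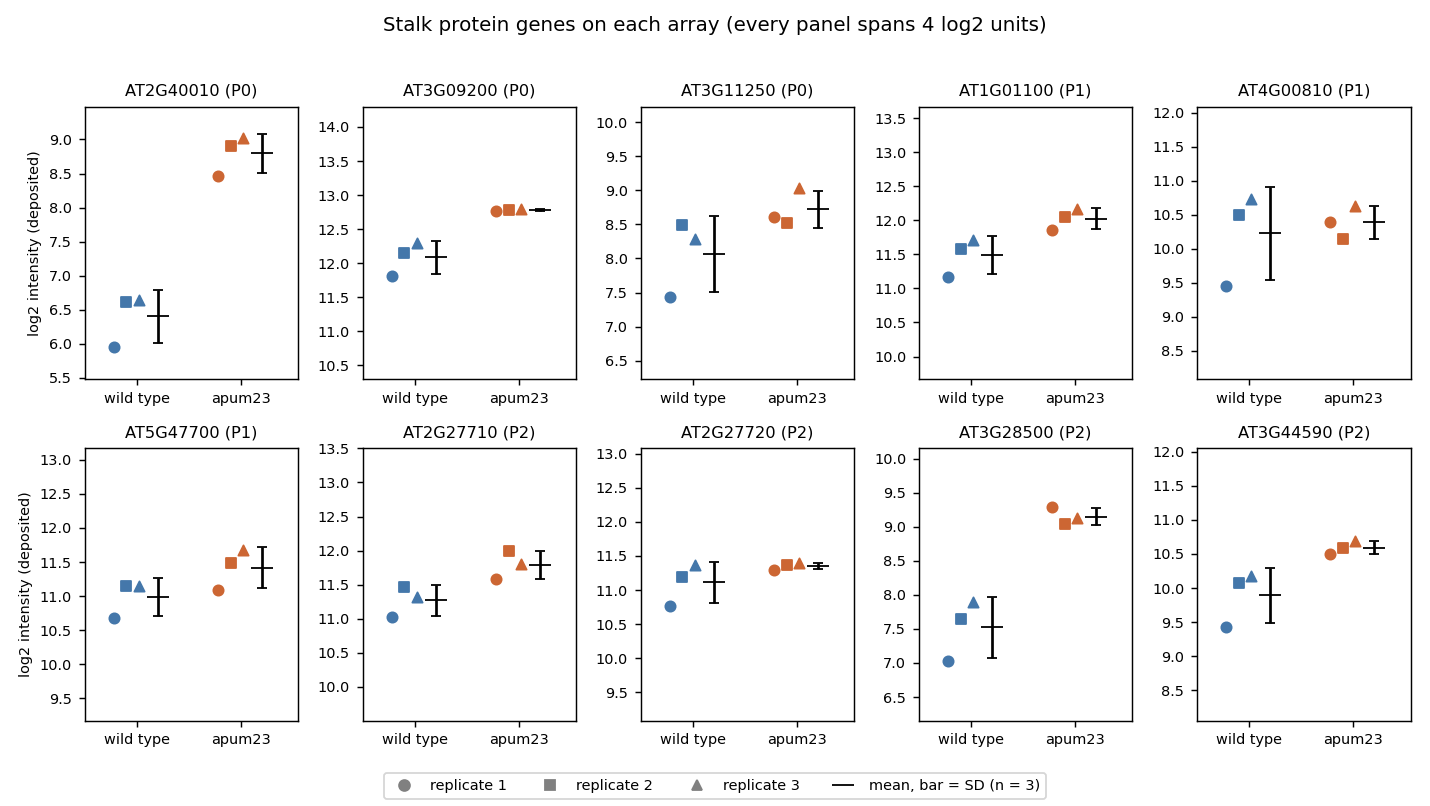
Deposited log2 intensity of the 10 stalk genes on each of the 6 arrays, wild type in blue and apum23 in orange, with symbols for the replicate and a black bar for the mean ± SD of 3 arrays. Every panel spans the same number of log2 units, so that the steps of AT2G40010 (6.40 to 8.80) and AT3G28500 (7.52 to 9.15) can be set against the smaller ones; wild-type replicate 1 is the lowest wild-type array in all 10 panels.

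Among the P0 genes, AT2G40010 read 5.95, 6.61 and 6.65 on the wild-type arrays and 8.47, 8.91 and 9.01 on the apum23 arrays. The groups were 1.82 log2 units apart at their nearest arrays. The mean went from 6.40 ± 0.39 to 8.80 ± 0.29 (SD, n = 3), a log2 difference of 2.40 with a standard error of 0.22, and 99.9% of all probe sets had a smaller difference. After quantile normalization the difference was 2.30.

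AT3G09200, also a P0 gene, read 11.81, 12.15 and 12.29 on the wild-type arrays and 12.76, 12.78 and 12.79 on the mutant arrays. The mutant arrays were close together and above all wild-type arrays. The log2 difference was 0.69, with a 95% interval of 0.25 to 1.13 (limma adjusted p = 0.0344). In wild type 99.4% of probe sets were dimmer than this one. The call rested on the full set of arrays, since AT3G09200 passed in 1 of the 6 fits with an array left out, where its adjusted p ran from 0.0166 to 0.165.

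The third P0 gene, AT3G11250, read 7.43, 8.48 and 8.29 on the arrays of wild type and 8.61, 8.53 and 9.03 on those of apum23. Its groups did not overlap, but the nearest arrays were 0.04 apart, and wild-type replicate 1 was far below the other wild-type arrays. The log2 difference was 0.65 (interval 0.21 to 1.09) and did not pass (limma adjusted p = 0.0540). The interval uses the pooled standard error and does not reflect this gene's own within-group SD of 0.44. Among the stalk genes only AT4G00810 had a higher SD. After quantile normalization the difference of AT3G11250 was 0.60 and passed (limma adjusted p = 0.0162). It also passed when wild-type replicate 2 (0.86) or 3 (0.76) was left out, with limma adjusted p = 0.0437 and 0.0252, while without wild-type replicate 1 it was 0.33 and did not pass.

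The P2 genes, which pair with P1 on the stalk, spread almost as widely. AT3G28500 read 7.03, 7.65 and 7.89 on the arrays of wild type and 9.28, 9.04 and 9.13 on those of apum23. The groups were 1.14 log2 units apart at their nearest arrays. The mean went from 7.52 ± 0.45 to 9.15 ± 0.13, a log2 difference of 1.63 with an interval of 1.19 to 2.07 (limma adjusted p = 1.12e-10). It passed with each of the 6 arrays left out, and the difference then ran from 1.38 to 1.81.

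AT3G44590 of P2 read 9.42, 10.07 and 10.18 on the arrays of wild type and 10.50, 10.58 and 10.69 on those of apum23, with no overlap. Its log2 difference was 0.70, with an interval of 0.26 to 1.14 (limma adjusted p = 0.0328). It passed in 1 of the 6 fits with an array left out, and without wild-type replicate 1 the difference was 0.46 (limma adjusted p = 0.213).

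The remaining P2 genes, AT2G27710 and AT2G27720, are next to each other on chromosome 2 with 0 annotated genes between them, and neither passed in the fit of the 6 arrays as deposited. AT2G27710 read 11.02, 11.46 and 11.32 on the arrays of wild type and 11.58, 11.99 and 11.80 on those of apum23. Its groups were apart by 0.11, with a log2 difference of 0.52 (interval 0.08 to 0.96, limma adjusted p = 0.188). It passed after quantile normalization, at 0.44 (limma adjusted p = 0.0158).

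AT2G27720 read 10.77, 11.20 and 11.36 on the arrays of wild type and 11.30, 11.37 and 11.40 on those of apum23, so that wild-type replicate 3 fell among the mutant arrays. The log2 difference was 0.24, with an interval of -0.20 to 0.68 (limma adjusted p = 0.794), and quantile normalization gave 0.20 (limma adjusted p = 0.208). The interval on the deposited values corresponds to a fold between 0.872 and 1.60, so a change of the size measured for AT3G28500 lay outside it and one of the size measured for AT2G27710 lay inside it.

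The P1 genes had the lowest median difference of the 3 families. AT1G01100 read 11.17, 11.58 and 11.71 on the arrays of wild type and 11.86, 12.05 and 12.17 on those of apum23. The groups did not overlap. The log2 difference of 0.53 did not pass on the deposited values (limma adjusted p = 0.165) and the 0.43 found after quantile normalization did (limma adjusted p = 0.00693).

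AT5G47700 of P1 read 10.67, 11.16 and 11.15 on the arrays of wild type and 11.08, 11.49 and 11.67 on those of apum23. Here apum23 replicate 1 was below wild-type replicates 2 and 3. The log2 difference was 0.42 (limma adjusted p = 0.364), and after quantile normalization it was 0.38 and passed (limma adjusted p = 0.0266).

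AT4G00810, the third P1 gene, read 9.45, 10.50 and 10.73 on the arrays of wild type and 10.40, 10.14 and 10.63 on those of apum23. The mutant arrays lay within the range of the wild-type arrays, and wild-type replicate 1 was more than 1 log2 unit below the other wild-type arrays. The log2 difference was 0.16, with an interval of -0.28 to 0.60 (limma adjusted p = 0.925). The interval uses the pooled standard error and does not reflect this gene's own within-group SD of 0.51, the highest of the stalk genes. The sign of the difference turned without wild-type replicate 1 (-0.23) and with the arrays centred on their medians (-0.0070), so the data give it no direction.

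**Figure D2:**
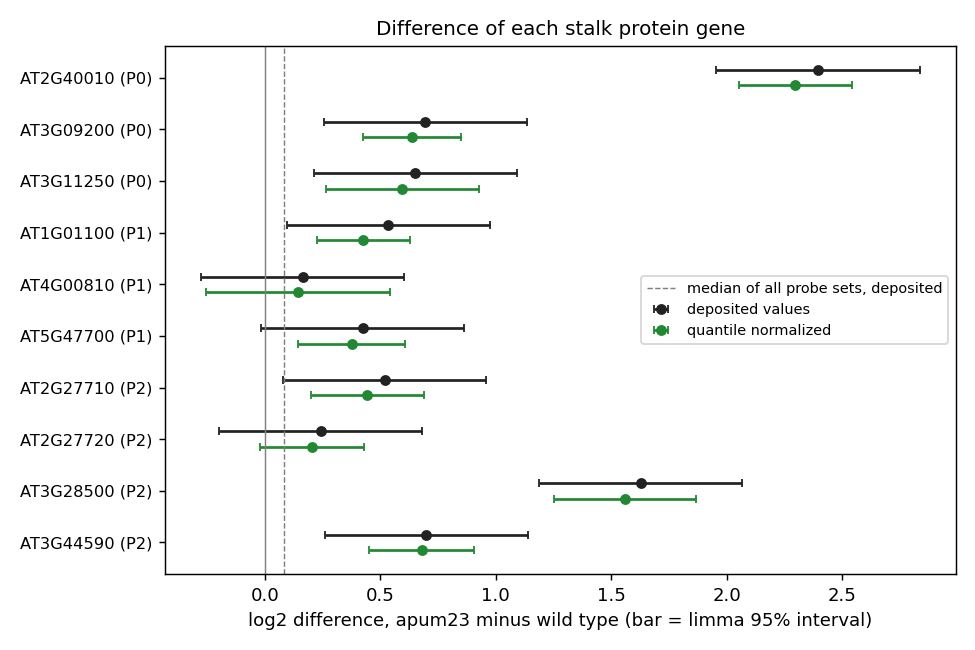
Log2 difference (apum23 minus wild type) of each stalk gene with its limma 95% interval, from deposited values (black) and after quantile normalization (green). The dashed line is the median of all probe sets on deposited values (0.08). The intervals of AT2G40010 and AT3G28500 lie above those of the other 8 genes on both scales.

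The 10 differences ran from AT2G40010 (2.40) and AT3G28500 (1.63) down to AT2G27720 (0.24) and AT4G00810 (0.16). By these values the P2 genes were spread through the order, while the P0 genes (lowest 0.65) lay above the P1 genes (highest 0.53). AT2G40010 exceeded AT3G28500 by 0.77 ± 0.24 (standard error). The 6 genes between, from AT3G44590 (0.70) to AT5G47700 (0.42), could not be ordered on deposited values. There the groups overlapped for 14 of the 15 within-array differences among them. The exception was AT3G44590 against AT1G01100, at 0.16 ± 0.09. After quantile normalization AT3G09200 against AT1G01100 was also apart, by 0.05. So was AT5G47700 against AT3G09200 and AT3G44590, by 0.0005 and 0.06. AT2G27720 and AT4G00810 differed by less than their spread. The medians were 0.69 for P0, 0.61 for P2 and 0.42 for P1.

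Much of the spread among replicates was shared by the 10 genes. On wild-type replicate 1 all 10 lay below their wild-type mean, by a median of 0.39, where the array's median lay 0.34 below the mean of the wild-type medians. On apum23 replicate 3, which had the highest array median, 9 of the 10 lay above their mutant mean. Quantile normalization lowered the SD within groups from a range of 0.175 to 0.513 over the 10 genes to a range of 0.0387 to 0.325, and AT4G00810 was the highest on both scales. Without wild-type replicate 1 the median difference of the 10 genes was 0.39, against -0.01 for all probe sets. With the 5 other arrays quantile normalized, 6 of the 10 passed as higher, against 8.23% of all probe sets: AT2G40010, AT3G09200, AT1G01100, AT2G27710, AT3G28500 and AT3G44590.

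**Figure D3:**
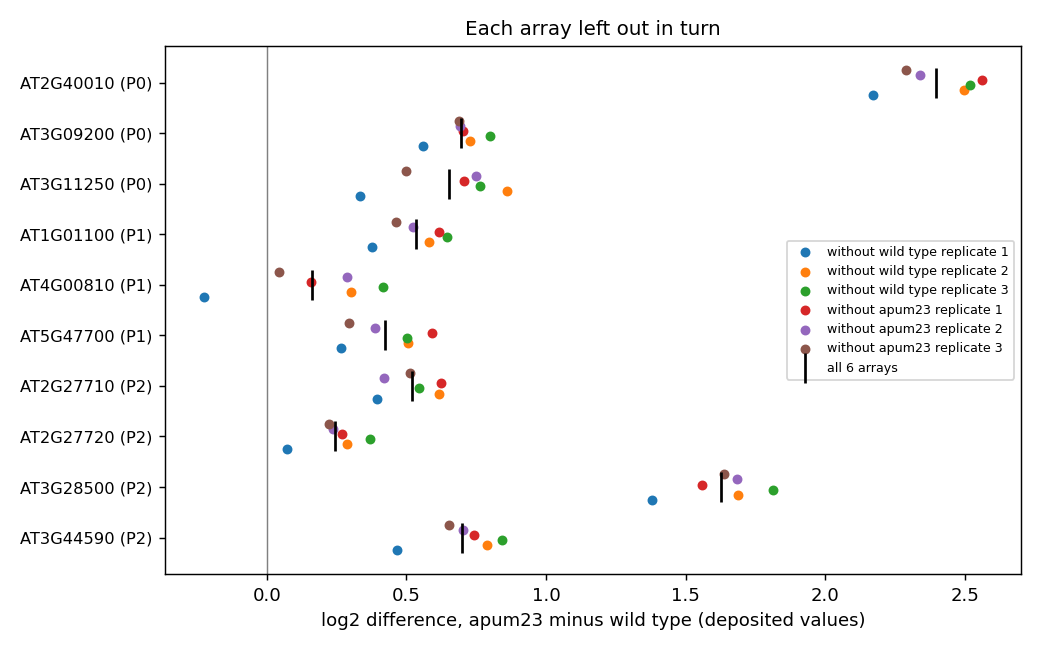
Log2 difference of each stalk gene on deposited values with all 6 arrays (black tick) and with each array left out in turn (coloured points). Leaving out wild-type replicate 1 gives the smallest difference for all 10 genes, 2.17 for AT2G40010, 1.38 for AT3G28500 and -0.23 for AT4G00810.

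A shift of a whole array cancels when 2 stalk genes are compared on the same array. Within P0, AT2G40010 minus AT3G09200 was -5.86, -5.54 and -5.65 on the wild-type arrays and -4.30, -3.87 and -3.78 on the apum23 arrays. This within-array difference was higher in apum23 by 1.70 ± 0.18 (standard error), given as a description because AT2G40010 was known to differ. AT2G40010 minus AT3G11250 moved by 1.74 ± 0.20. AT3G09200 minus AT3G11250 moved by 0.04 ± 0.25, and its groups overlapped (exact permutation p = 0.9, two-sided). The difference of AT2G40010 to each of the other 9 genes was higher on all mutant arrays than on all wild-type arrays, by 0.77 to 2.23. The same held for AT2G40010 against 99.7% of all other probe sets, so it says little about the stalk.

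Within P2, AT3G28500 minus its family member AT3G44590 was -2.40, -2.43 and -2.29 on the arrays of wild type and -1.22, -1.55 and -1.56 on those of apum23, a move of 0.93 ± 0.12. Against AT2G27710 and AT2G27720 the moves were 1.11 ± 0.25 and 1.38 ± 0.13. AT3G28500 was higher in apum23 without overlap against 98.6% of all other probe sets. AT3G44590 minus AT2G27720 also kept its groups apart, with a move of 0.46 ± 0.07. The neighbouring genes AT2G27710 and AT2G27720 moved apart by 0.28 ± 0.14, with groups separated by 0.01 on deposited values and overlapping after quantile normalization. Within P1, AT1G01100 minus AT5G47700 moved by 0.11 ± 0.10, and AT1G01100 minus AT4G00810 by 0.37 ± 0.27, both with overlap.

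Over the 45 pairs of stalk genes, 24 reached an exact two-sided permutation p = 0.1. This is the smallest that 3 arrays against 3 can give, so no pair could pass. All 9 pairs with AT2G40010, known beforehand to differ, are among the 24. Of the 36 pairs without it, 15 reached that value. All pairs of AT3G28500 among the 36 are in these 15. AT3G28500 was higher in apum23 without overlap against 98.6% of all other probe sets, so its pairs say little about the stalk. Adjusted over the 45 pairs the lowest value was 0.188. The probe sets are listed as specific to 1 gene each, and how much signal close relatives add was not tested.

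**Figure D4:**
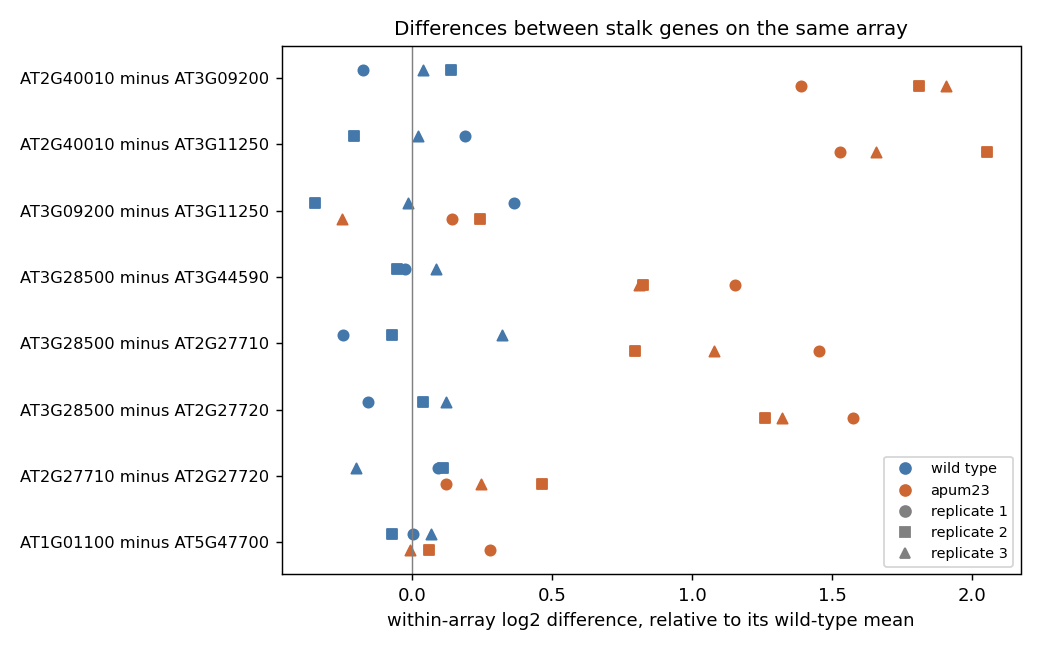
Differences between 2 stalk genes on the same array, set to 0 at the wild-type mean of that pair, for 8 pairs; colours mark the genotype and symbols the replicate. Pairs with AT2G40010 or AT3G28500 separate the genotypes (1.70 for AT2G40010 minus AT3G09200, 0.93 for AT3G28500 minus AT3G44590), while AT3G09200 minus AT3G11250 does not (0.04).

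Genes for proteins known to work with the stalk, and for its counterparts in the organelles, were listed by role and are called partners here. This list too was drawn up with earlier results of these data known, so its counts are descriptions. Of 42 listed genes 16 were measured, and 5 rose, 0 fell and 11 did not pass, against 5.31% of all probe sets that rose. Their median log2 difference was 0.52, with 15 of 16 above 0, against 65.3% of all probe sets. Mitochondrial counterparts, which are not part of the cytosolic ribosome, made up 4 of the 16 genes and 2 of the 5 that rose. After quantile normalization 10 of the 16 passed as higher, against 9.69% of all probe sets. With arrays left out the number ranged from 0, without wild-type replicate 1 or apum23 replicate 3, to 7, without wild-type replicate 3. Leaving out wild-type replicate 2 gave 2, and leaving out apum23 replicate 1 or 2 gave 1. The share of all probe sets that passed as higher in these 6 fits was 2.47% to 7.47%, the highest again without wild-type replicate 3.

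Genes of the stalk's own surroundings were near its median. The 2 genes of P3, the plant relative of P1 and P2, differed by 0.61 (AT4G25890) and 0.58 (AT5G57290), did not pass in the fit of the 6 arrays as deposited (limma adjusted p = 0.0801 and 0.108) and passed after quantile normalization. AT4G25890 also passed with the arrays centred on their medians and without wild-type replicate 3 (limma adjusted p = 0.0335 and 0.0307). Of the 3 genes for L12, the protein at the base of the stalk, AT5G60670 rose from 10.73 ± 0.43 to 11.50 ± 0.27 (limma adjusted p = 0.0141). The other L12 genes were at 0.59 (AT3G53430) and 0.45 (AT2G37190) and passed after quantile normalization but not as deposited. AT1G25260, whose relative Mrt4 in yeast holds the place of P0 on the assembling large subunit in the nucleolus, rose from 9.52 ± 0.39 to 10.25 ± 0.11 (limma adjusted p = 0.0231).

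Translation factors that use the stalk were thinly covered. Neither elongation factor 2 nor the recycling factor ABCE had a measured gene, and elongation factor 1A had only a probe set shared by 4 genes, which is not assigned to any of them here. The 2 measured genes of the exchange factor eEF1B, AT5G19510 (0.37) and AT5G12110 (0.07), did not pass on either scale. Of the 2 eIF5B genes, for the factor that joins the subunits, AT1G76810 was at 0.44 and passed after quantile normalization but not as deposited, and AT1G21160 was at -0.05. ILA (AT1G64790), the plant counterpart of GCN1, which works with the stress kinase GCN2, rose from 7.04 ± 0.49 to 7.89 ± 0.25 (limma adjusted p = 0.00397). Casein kinase 2 phosphorylates the acidic tails in yeast, and of its 8 listed genes only AT2G23070 was measured. AT2G23070 was at 0.08 and did not pass. Whether its product acts on the stalk was not tested, and its value does not stand for the other listed genes.

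The organelles have stalks of bacterial type. Of 4 measured genes for mitochondrial L10 and L12 proteins, AT3G06040 (0.71) and AT4G37660 (0.68), both of the L12 type, rose (limma adjusted p = 0.0288 and 0.0411), and AT1G70190 (0.45) and AT3G12370 (0.38) did not pass. No gene of the plastid stalk was measured.

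**Figure D5:**
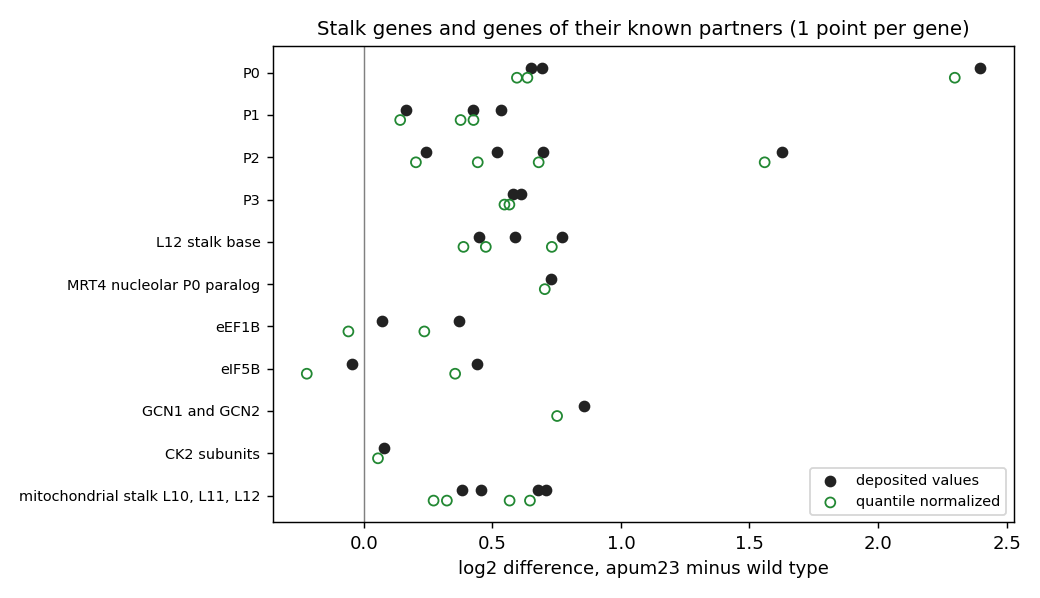
Log2 difference (apum23 minus wild type) of each measured stalk gene, known partner gene and mitochondrial counterpart, 1 point per gene. Filled points are deposited values and open points are values after quantile normalization. AT2G40010 (2.40) and AT3G28500 (1.63) lie to the right of the 16 partner genes, whose differences run from -0.05 to 0.86.

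Across the 6 arrays, the genes with profiles nearest to AT2G40010 had the same high values in apum23, as likeness to a gene with this profile requires. By the root mean square distance of values centred on each gene's mean, the 5 nearest of 13354 other genes were AT2G21640, a marker of oxidative stress, AT1G23410, which encodes ribosomal protein S27a fused to ubiquitin, AT4G22960, AT1G24095 and the MADS-box gene AGL19. Their distances were 0.22 to 0.25 log2 units, and 4 of the 5 were also among the 5 nearest after quantile normalization. The nearest stalk gene to AT2G40010 was AT3G28500, at 0.45, which was 36th among all genes. AT3G09200 and AT3G44590 were each other's nearest stalk gene (0.11), as were AT1G01100 and AT5G47700 (0.11). Many other genes were closer, since these neighbours ranked only 59th and 104th, and 402nd and 322nd, among all genes. Nearest to the mean profile of the 10 genes were NIH, a nuclear helicase gene, AT1G25260, AT2G48100, AT1G12020 and AT4G34950, at 0.05 log2 units each. After quantile normalization 2 of these 5 remained among the nearest. The mean profile includes AT2G40010 (2.40) and AT3G28500 (1.63). The 5 nearest differed by 0.73 to 0.82, above the 0.16 to 0.70 of the other stalk genes.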

How the data were processed

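The submitters' processing notes name RMA and limma without a version. The authors deposited log2 intensities for each probe set of 6 ATH1 arrays. Their array medians differ, so the arrays had not been brought to a common distribution, and the values were taken as they are. Of 22810 probe sets, 64 control probe sets were left out. GEO's platform table, matched by gene ID to RefSeq (TAIR10.1), names 13513 probe sets with 1 gene, of which 13436 matched. The 10 stalk genes matched.

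The genotypes were compared by limma 3.58.1, run under R 4.3.3 (lmFit, eBayes, no block, two-sided, Benjamini-Hochberg over 22746 probe sets, call at an adjusted p under 0.05). The prior degrees of freedom were infinite, so every log2 difference had the standard error 0.22 and the smallest called was 0.66. Quantile normalization (median standard error 0.11) was the main alternative. Pairs of genes were compared by their within-array difference with an exact permutation test. The number of arrays limits the precision. Named genes were the 10 members, called partners and the largest difference of each partner list, and the 5 nearest profiles; AT5G57290, AT3G53430, AT2G37190, AT5G12110, AT1G21160, AT1G70190 and AT3G12370 were named to complete their lists after their values were seen. The members and lists were chosen with earlier results of these data known.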

Additional observations from a re-analysis of the deposited data

How the results depend on the processing

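AT3G28500 kept its direction and passed in all 14 alternatives run, and the difference of AT2G40010, a description only, ran from 2.07 to 2.56. Over the 10 stalk genes and these alternatives (140 values) 111 kept direction and side of the threshold, 15 no longer passed, 11 newly passed and 3 reversed; the cause was not tested. The reversed values were AT4G00810 with arrays centred on their medians (-0.0070), without wild-type replicate 1 (-0.23, the lowest of a leave-one-out range up to 0.42) and quantile normalized without that array (-0.089). AT2G23070, which did not pass, also reversed with median centring (-0.093), in the leave-one-out fits that lack wild-type replicate 1 (-0.12) or apum23 replicate 3 (-0.049; these fits ran up to 0.26) and when apum23 replicate 1 stood for the mutant alone (-0.035). Against 4 stalk genes and 5 partners called higher (5.31% of all probe sets), the counts were 8 and 10 after quantile normalization (9.69%). They were 6 and 9 if that was done without wild-type replicate 1 (8.23%). An intensity trend gave 4 and 3 (3.79%), and an adjusted p under 0.01 gave 2 and 1 (3.36%). For apum23 replicate 1 alone the median differences were 0.45 and 0.36. Leaving out 1 array at a time gave 2 to 5 stalk genes and 0 to 7 partners (2.47% to 7.47%). Without wild-type replicate 1 or any 1 apum23 array the count of stalk genes was 2. Against 1522 of all probe sets (79.4% higher) it was 4481 after quantile normalization (49.2% higher), 3717 if that was done without wild-type replicate 1, 2997 with median centring, 916 at an adjusted p under 0.01, 253 for apum23 replicate 1 alone and, leaving out 1 array at a time, 852 to 1842 (861 where wild-type replicate 2 was missing, 880 for apum23 replicate 1, 898 for apum23 replicate 2 and 852 for apum23 replicate 3). With apum23 replicate 1 alone the lone array is assumed to vary like the wild-type arrays. For the 45 pairs of stalk genes, quantile normalization, median centring, each array left out and the block were run, and none could pass (0 pairs, also at an unadjusted p under 0.05), since the exact permutation p cannot go below 0.1 with 6 arrays; this says nothing about stability. Leaving out the dimmest 40% of probe sets ended the call of AT3G09200 (adjusted p = 0.0505).

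Same-numbered arrays deviated together at correlations of -0.29, 0.11 and 0.16 over all probe sets, which gives no sign of pairing. The replicate block called 7 stalk genes and 8 partners higher (8.57% of all probe sets) and 2604 probe sets either way. No pair of stalk genes could pass (smallest p 0.25). The stalk genes the block added were AT3G11250, AT1G01100 and AT2G27710 (limma adjusted p = 0.0482, 0.0279 and 0.0286), and it also called AT4G25890 (0.0134).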
